A study of Mus musculus with 2 samples.

Results

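The 9 genes described here encode transcription factors of the cartilage and bone lineages: Sox5, Sox6, Sox9, Runx2, Runx3, Sp7, Mef2c, Dlx5 and Foxa2. Their transcripts were followed across the cell types of the callus of a broken mouse femur by scRNA-seq, the callus being the repair tissue that bridges a broken bone. The genes were chosen by symbol, and all 9 were found among the 32285 genes of both matrices. Callus came from mice that the labels give as wt, of the C57BL/6J strain per the study's methods, with a femoral fracture as the only treatment. Per the methods, animals in vivo were male and aged 12 weeks. The labels give no age, and no unfractured bone was analysed here. The design named 5 mice sampled 10 days and 5 mice sampled 20 days after fracture. For the libraries, called MGJ and MGJ2, no day is given, and neither library keeps the mice apart. Both libraries are therefore given side by side, without comparing them as time points, and no p-value was computed. Library MGJ held 14295 barcodes and 135304426 UMIs (unique molecular identifiers, each standing for 1 captured RNA molecule), and library MGJ2 held 8009 barcodes and 61130834 UMIs. After barcodes with under 200 genes, over 20% mitochondrial UMIs or a high doublet score were removed, 12947 and 7568 cells were kept. The libraries shared 19 barcode sequences.

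In endochondral repair, a cartilage template is laid down first and is then replaced by bone. SOX9 switches on the cartilage programme, and SOX5 and SOX6 are related proteins that work with it on cartilage matrix genes. As chondrocytes enlarge (hypertrophy) they turn on Col10a1, which encodes the collagen of hypertrophic cartilage, a step known to need RUNX2, RUNX3, MEF2C and FoxA factors. RUNX2, DLX5 and SP7 (osterix) are also needed for osteoblasts.

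The SOX and RUNX members form families of near relatives. A window of 90 coding bases from each was read in frame from GENCODE release M21 transcripts on GRCm38. It overlaps the part that binds DNA, the HMG box for SOX and the Runt domain for RUNX. The windows were chosen as the stretches of highest identity between Sox9 and Sox6 and between Runx2 and Runx3. Sox5 was then matched to the Sox9 window. Their likeness is therefore a maximum, not that of the whole part that binds DNA. Capitals mark bases that differ from Sox9 in the SOX windows and from Runx2 in the RUNX windows.
Sox9, coding bases 307 to 396: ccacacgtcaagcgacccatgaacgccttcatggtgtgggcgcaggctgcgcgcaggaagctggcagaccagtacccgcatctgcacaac
Sox5, coding bases 1660 to 1749: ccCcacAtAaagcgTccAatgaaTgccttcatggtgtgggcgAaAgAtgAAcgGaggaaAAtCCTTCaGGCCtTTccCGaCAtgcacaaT
Sox6, coding bases 1855 to 1944: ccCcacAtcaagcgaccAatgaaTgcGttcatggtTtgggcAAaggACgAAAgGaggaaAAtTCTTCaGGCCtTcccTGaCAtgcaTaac
Runx2, coding bases 568 to 657: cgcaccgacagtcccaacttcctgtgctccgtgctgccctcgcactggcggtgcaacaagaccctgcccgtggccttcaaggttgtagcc
Runx3, coding bases 247 to 336: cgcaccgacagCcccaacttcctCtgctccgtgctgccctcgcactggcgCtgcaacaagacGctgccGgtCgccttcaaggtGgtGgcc
The Sox5 and Sox6 windows shared 77 of 90 bases (85.6%) and encoded the same amino acid in 30 of 30 codons. Sox5 shared 60 bases (66.7%) and 19 codons with Sox9, and Sox6 shared 59 bases (65.6%) and 19 codons. Runx2 and Runx3 shared 82 bases (91.1%), with the same amino acid in 30 of 30 codons. The counts themselves come from the 3′ ends of transcripts, outside these windows.

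Promoters are shown for Mef2c and Foxa2, which had the highest ratios of Col10a1-high to Col10a1-low cells in library MGJ as described below, and for the RUNX pair, as the 250 bases before the first listed start site in RefSeq on GRCm38.p6, written 5′ to 3′ on the gene's strand. Each was searched on both strands for RUNX letters (TGTGGT), SOX letters (AACAAT), FOX letters (TGTTTAC) and TATA box letters (TATAAA), none of which contains another, and matches are in capitals.
Mef2c, chr13:83503784-83504033, plus strand: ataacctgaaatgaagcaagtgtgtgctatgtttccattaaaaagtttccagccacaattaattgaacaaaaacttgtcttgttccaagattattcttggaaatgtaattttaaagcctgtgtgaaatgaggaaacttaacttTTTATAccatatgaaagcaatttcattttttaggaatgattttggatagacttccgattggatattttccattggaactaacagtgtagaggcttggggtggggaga
Foxa2, chr2:148046970-148047219, minus strand: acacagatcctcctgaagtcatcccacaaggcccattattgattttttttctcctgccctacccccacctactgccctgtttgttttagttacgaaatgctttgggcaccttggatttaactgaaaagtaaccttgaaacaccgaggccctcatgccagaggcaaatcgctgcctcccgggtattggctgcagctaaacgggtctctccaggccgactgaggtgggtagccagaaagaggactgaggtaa
Runx2, chr17:44814628-44814877, minus strand: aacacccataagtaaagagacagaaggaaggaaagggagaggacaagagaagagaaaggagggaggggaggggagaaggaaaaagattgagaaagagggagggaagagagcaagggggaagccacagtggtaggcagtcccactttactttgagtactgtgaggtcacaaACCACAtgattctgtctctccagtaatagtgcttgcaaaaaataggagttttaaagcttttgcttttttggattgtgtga
Runx3, chr4:135120395-135120644, plus strand: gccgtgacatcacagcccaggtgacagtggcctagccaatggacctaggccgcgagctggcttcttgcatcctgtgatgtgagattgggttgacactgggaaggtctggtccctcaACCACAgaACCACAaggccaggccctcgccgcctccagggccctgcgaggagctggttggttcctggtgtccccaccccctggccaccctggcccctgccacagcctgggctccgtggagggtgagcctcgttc
RUNX letters, read on the other strand as ACCACA, stood 80 bases before the Runx2 start and 134 and 126 bases before the Runx3 start. The Mef2c window held the TATA letters on the other strand, 107 bases before the start, and the Foxa2 window held none of the 4 motifs. Among 32851 RefSeq promoter windows of the same length, 14.0% held the RUNX letters, 9.42% the SOX letters, 3.17% the FOX letters and 12.4% the TATA letters. RefSeq promoter entries matched 6 of the 9 members. Sox9, Sp7 and Dlx5 are named only.

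Based on the expression of marker genes kept apart from the members, cells were clustered and named, and classes are written with "-like". The members, the listed genes and Col10a1, 52 genes in all, took no part in the clustering. Chondrocyte-like cells numbered 2326 in library MGJ and 115 in MGJ2, and carried Col2a1, the main cartilage collagen, at 56480.4 and 42129.5 CPM (UMIs per 1000000 UMIs of the class), against 676 and 71.9 CPM in neutrophil-like cells. Osteoblast-like cells (167 and 17), a sub-cluster of the chondrocyte clusters led by Ifitm5 and Bglap, carried the bone genes Bglap at 466 and 170 CPM and Ifitm5 at 196 and 374 CPM, against 20.5 and 112 CPM and 3.21 and 0.857 CPM in chondrocyte-like cells. They also held Col2a1 at 22249.8 and 14993 CPM, so their markers were mixed, and their part in the member levels was not tested. The marker list that scored best in them was that of chondrocytes (4.09, with 6 markers detected), but markers of other classes led them. No cluster took the fibroblast name. The cells nearest to that list, 571 cells of library MGJ led by Cxcl5 and Sfrp1, are called by those genes, and 837 tenocyte-like cells of MGJ stood at 518 CPM of the tendon gene Tnmd. A sub-cluster of 289 and 26 cells led by Smim5 and Rtl3 held chondrocyte genes (Col2a1 at 48496.5 and 57863.3 CPM) but was left unnamed because markers of other classes led it. It is counted among the other cells. In MGJ2 this sub-cluster held Bglap at 502 CPM, above the 170 CPM of osteoblast-like cells. Chondrocyte-like cells high in Col10a1, described below, held 164 CPM there. Bglap thus did not set the osteoblast-like cells of MGJ2 apart.

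In both libraries 8 of the 9 members were at least 2-fold higher in chondrocyte-like cells than in all other kept cells, with the 95% interval of the ratio above 1. All genes with at least 50 UMIs in this comparison were counted by the fold alone, without the interval. Of these, 12.4% were higher by that much in library MGJ (1813 of 14641) and 19.4% in MGJ2 (2532 of 13056). Lower by at least 2-fold were 0 members in MGJ, beside 26.6% of all genes, and 1 in MGJ2, beside 32.7%. The median ratio was 3.72 over the members in MGJ and 13.2 in MGJ2, beside 0.847 and 0.775 over all genes. The exception was Runx3, at a ratio of 1.32 (1.25 to 1.41) in MGJ and 0.329 (0.286 to 0.376) in MGJ2. The other cells of MGJ included 837 tenocyte-like cells and 571 led by Cxcl5 and Sfrp1, whereas those of MGJ2 included 9 and 0. Ratios to the other cells thus rest on unlike comparison cells in MGJ and MGJ2. With at most 10% mitochondrial UMIs and clusters remade, 6 members were at least 2-fold higher in MGJ and 7 in MGJ2, with Runx2 at 1.60 and 1.70 and Mef2c at 0.880 in MGJ. The sizes of the ratios moved with the settings, and over 8 alternatives that of Sox9 ran from 3.47 to 9.35 in MGJ and from 28.4 to 154 in MGJ2. Intervals in this text are 95% intervals of the counts and cover counting error only, not the spread between cells or between animals. Chondrocyte-like cells also held more RNA per barcode, with a median of 22005 and 29186 UMIs against 3637 and 4824 in the other cells, which is why levels are given in CPM.

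**Figure D1:**
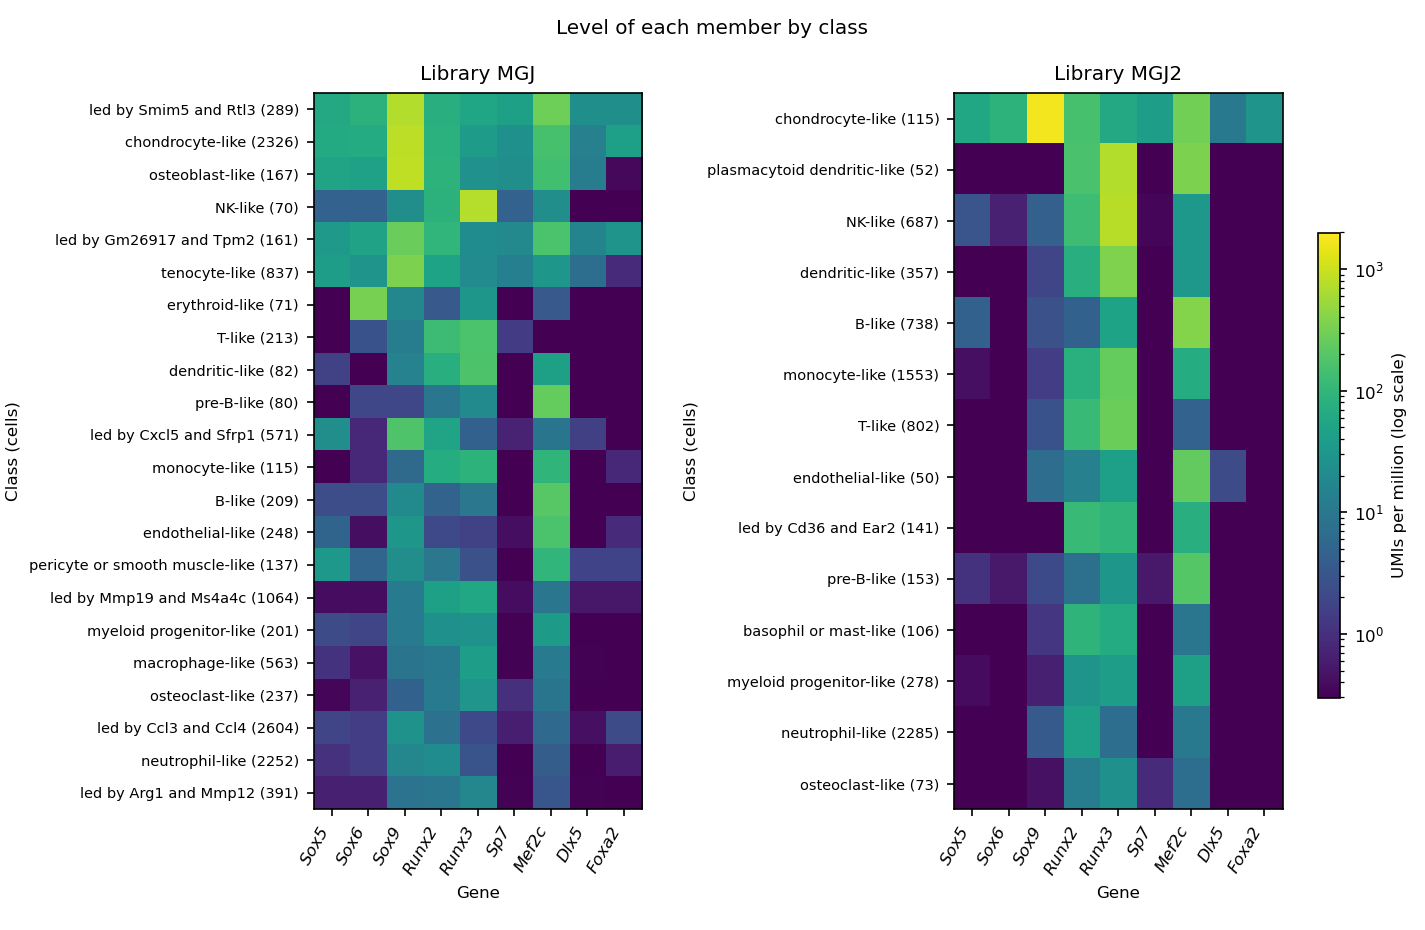
Level of each of the 9 members (columns, in CPM on a log colour scale, with values under 0.3 given the lowest colour) in each class of at least 50 cells (rows), library MGJ and library MGJ2 in separate panels. Chondrocyte-like cells stood first for Sox5 and Foxa2 in both libraries, while Runx3 was highest in NK-like cells (753 and 782 CPM).

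In library MGJ, Sox9 (chr11:112782224-112787760, plus strand, GRCm38) stood at 841 CPM over the chondrocyte-like cells and 177 CPM over the other cells. In MGJ2 it was at 1700 CPM against 24.9 CPM, a ratio of 68.4 (64.5 to 72.6). Osteoblast-like cells of MGJ stood at the chondrocyte-like level, at 853 CPM, with a ratio of chondrocyte-like to osteoblast-like of 0.986 (0.946 to 1.03). The sub-cluster led by Smim5 and Rtl3 followed at 733 CPM, tenocyte-like cells at 347 CPM and the cells led by Cxcl5 and Sfrp1 at 176 CPM, each apart from the next class of the order beyond counting error. In library MGJ2 no other class of at least 50 cells passed 6.93 CPM, and the 17 osteoblast-like cells there held 1286 CPM. When each cell was thinned to 2000 UMIs, 73.2% of chondrocyte-like cells in MGJ and 80.2% in MGJ2 held a Sox9 UMI (97.6% and 94.8% before thinning). The share in neutrophil-like cells, which should lack the gene, was 2.78% and 0.827% (5.02% and 1.18% before thinning), at median depths of 2256 and 2482 UMIs.

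Sox5 (chr6:143828425-144781977, minus strand) stood at 66.0 and 57.1 CPM in chondrocyte-like cells, the first of the classes in both libraries. The other cells were at 17.7 CPM in MGJ and 1.97 CPM in MGJ2, and the ratios were 3.72 (3.49 to 3.97) and 29.0 (22.8 to 37.0). In library MGJ the gap between chondrocyte-like cells and the sub-cluster led by Smim5 and Rtl3 (60.4 CPM) lay within counting error. Tenocyte-like cells held 39.9 CPM and pericyte or smooth muscle-like cells 32.8 CPM, lower than chondrocyte-like cells.

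Sox6 (chr7:115470872-116038796, minus strand) stood at 68.7 and 87.9 CPM over chondrocyte-like cells against 14.8 and 2.32 CPM in the other cells. The highest level of Sox6 was not in cartilage: 71 erythroid-like cells of library MGJ, in which the haemoglobin gene Hba-a1 stood at 81428 CPM, held it at 334 CPM (270 to 409; 94 UMIs), 4.86-fold (3.92 to 5.97) the chondrocyte-like level. SOX6 is also known as a regulator of globin genes in red cell precursors. After thinning, 24 of 50 erythroid-like cells (48%, 33.7 to 62.6%) held a Sox6 UMI, against 12.9% of chondrocyte-like cells and 0.3001% of neutrophil-like cells. The unthinned shares were 66.2%, 67.9% and 0.444%, with median depths of 2574, 22005 and 2256 UMIs. Library MGJ2 had only 4 erythroid-like cells, and chondrocyte-like cells were first there among the classes of at least 50 cells. The 26 cells led by Smim5 and Rtl3 in MGJ2 held 105 CPM (81.8 to 134).

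Runx2 (chr17:44495987-44814797, minus strand), which drives both hypertrophy and bone formation, separated chondrocyte-like cells from the rest by much less than the SOX members. It was at 82.3 CPM in chondrocyte-like and 38.6 CPM in other cells of MGJ, a ratio of 2.13 (2.03 to 2.24). In MGJ2 it was at 153 and 65.5 CPM, a ratio of 2.34 (2.13 to 2.56). Both ratios lay under 2-fold with at most 10% mitochondrial UMIs. Several blood classes stood near or above these levels. T-like cells of MGJ held 127 CPM (102 to 155), above chondrocyte-like cells (79.9 to 84.9). In MGJ2 they held 112 CPM (102 to 122), below chondrocyte-like cells (140 to 167). NK-like cells held 85.2 and 128 CPM, and 52 plasmacytoid dendritic-like cells of MGJ2 160 CPM. In MGJ the first 7 classes of the order could not be told from their neighbours, though T-like and chondrocyte-like cells, not neighbours, had separate intervals. Osteoblast-like cells of MGJ were at 89.96 CPM, with a chondrocyte-like to osteoblast-like ratio of 0.915 (0.805 to 1.04). The genes Runx2os1 and Supt3, on the other strand, overlap Runx2 exons. They held 923 and 1245 UMIs in MGJ and 474 and 484 UMIs in MGJ2, beside 7560 and 4271 UMIs of Runx2. These sums cover barcodes beyond the kept cells, which held 7093 and 4090 UMIs of Runx2. The library kit marks strand.

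Runx3 (chr4:135120652-135177990, plus strand), known for its part in cytotoxic lymphocytes as well as in cartilage, was highest in NK-like cells, at 753 CPM in MGJ and 782 CPM in MGJ2. Plasmacytoid dendritic-like cells of MGJ2 held 723 CPM, within counting error of the NK-like level. Dendritic-like cells followed at 173 and 366 CPM, T-like cells at 168 and 274 CPM and monocyte-like cells at 89.8 and 249 CPM. Chondrocyte-like cells were eighth in both libraries, at 39.4 and 61.7 CPM, above neutrophil-like cells of MGJ2 (7.12 CPM) and endothelial-like cells of MGJ (1.69 CPM), which closed the order. At 2000 UMIs, 7.07% and 9.91% of chondrocyte-like cells and 80.0% and 73.4% of NK-like cells held a Runx3 UMI, against 0.525% and 1.36% of neutrophil-like cells. The unthinned shares were 42.5% and 59.1%, 84.3% and 88.4%, and 0.844% and 1.88%.

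Sp7 (chr15:102356606-102367182, minus strand), the osteoblast factor, stood at 25.1 CPM over the chondrocyte-like cells of MGJ and 40.5 CPM in MGJ2, against 6.58 and 3.08 CPM in the other cells. The ratios were 3.81 (3.43 to 4.24) and 13.2 (10.5 to 16.6). In MGJ, osteoblast-like cells held 23.1 CPM and were not told from chondrocyte-like cells (ratio 1.08, 0.843 to 1.42). The 17 osteoblast-like cells of MGJ2 stood at 125 CPM (96.1 to 161), and 19 reticular stromal-like cells of that library at 109 CPM. The sub-cluster led by Smim5 and Rtl3 held 44.2 CPM in MGJ and 102 CPM in its 26 cells of MGJ2.

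Dlx5 (chr6:6877805-6882085, minus strand), a homeodomain factor that acts with RUNX2 and SP7 in bone, was the least detected member of chondrocyte-like cells, with 712 UMIs in MGJ and 37 in MGJ2. Its levels were 13.9 and 10.6 CPM against 3.86 and 1.29 CPM in the other cells, at ratios of 3.60 (3.13 to 4.14) and 8.19 (5.35 to 12.4). Osteoblast-like cells of MGJ held 11.9 CPM and tenocyte-like cells 7.23 CPM. The reticular stromal-like cells, 6 in MGJ and 19 in MGJ2, held 44.1 and 104 CPM, above the chondrocyte-like level. The sub-cluster led by Smim5 and Rtl3 was also above it, at 24.1 CPM in MGJ (1.74-fold, 1.41 to 2.12). Its 26 cells of MGJ2 held 57.3 CPM. No Dlx5 UMI was counted in 12 of the 14 classes of at least 50 cells in MGJ2. Of the 70 Dlx5 UMIs outside chondrocyte-like cells there, 37 lay in the Smim5 and Rtl3 cells and 22 in reticular stromal-like cells.

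Mef2c (chr13:83504034-83667080, plus strand) was not confined to cartilage. It was also held by B cells and vessels, tissues in which MEF2C is known to act, and by other classes. Chondrocyte-like cells held 155 and 310 CPM and all other cells 48.3 and 73.9 CPM, at ratios of 3.21 (3.08 to 3.34) and 4.19 (3.92 to 4.48). B-like cells stood at 199.7 and 395.5 CPM, pre-B-like cells at 252 and 198 CPM and endothelial-like cells at 168 and 238 CPM. The sub-cluster led by Smim5 and Rtl3 held 284 CPM in MGJ, the highest of the classes of at least 50 cells. Its 26 cells of MGJ2 held 355 CPM. Plasmacytoid dendritic-like cells held 353 CPM in 21 cells of MGJ and 350 CPM in 52 cells of MGJ2. Among classes of at least 50 cells, T-like cells closed the order in both libraries, with no UMI in MGJ and 4.77 CPM in MGJ2. Osteoblast-like cells of MGJ were at 140 CPM, close to all chondrocyte-like cells (ratio 1.10, 0.997 to 1.23). With a limit of 10% mitochondrial UMIs, the remade cluster that held most Col10a1-high cells took no chondrocyte name (43 of 513 in MGJ stayed chondrocyte-like, though 508 passed the limit), and the ratio of chondrocyte-like to other cells of MGJ was 0.880.

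Foxa2 (chr2:148042877-148046969, minus strand), better known from gut, liver and notochord, had a ratio of chondrocyte-like to other cells in MGJ above those of the other members as reported, though not at every setting. Chondrocyte-like cells held 43.7 CPM, against 2.16 CPM in the other cells of that library, a ratio of 20.3 (17.3 to 23.9). In MGJ2 the levels were 28.8 and 0.497 CPM, a ratio of 58.0 (37.6 to 92.3). Of the 27 Foxa2 UMIs in those other cells of MGJ2, 25 lay in the 26 cells led by Smim5 and Rtl3, and counting these cells as chondrocyte-like gave 815 (221 to 6802) in MGJ2 and 58.6 in MGJ. With at most 10% mitochondrial UMIs the ratios were 2.17 and 8.82, and that of MGJ was then below those of Sox5, Sox6, Sox9 and Sp7. Osteoblast-like cells of MGJ, which matched chondrocyte-like cells in Sox9, held 1 Foxa2 UMI in 167 cells, or 0.361 CPM (0.00915 to 2.01), for a ratio of 121 (21.7 to 4780). Tenocyte-like cells held 0.843 CPM, and the 17 osteoblast-like cells of MGJ2 held no UMI. At 2000 UMIs, 7.38% and 7.21% of chondrocyte-like cells held a Foxa2 UMI (29.9% and 34.8% unthinned). In neutrophil-like cells, 0 of 1333 thinned cells did in MGJ, which allows a share of up to 0.225%, and 0.118% did in MGJ2 (0.178% and 0.0875% unthinned).

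**Figure D2:**
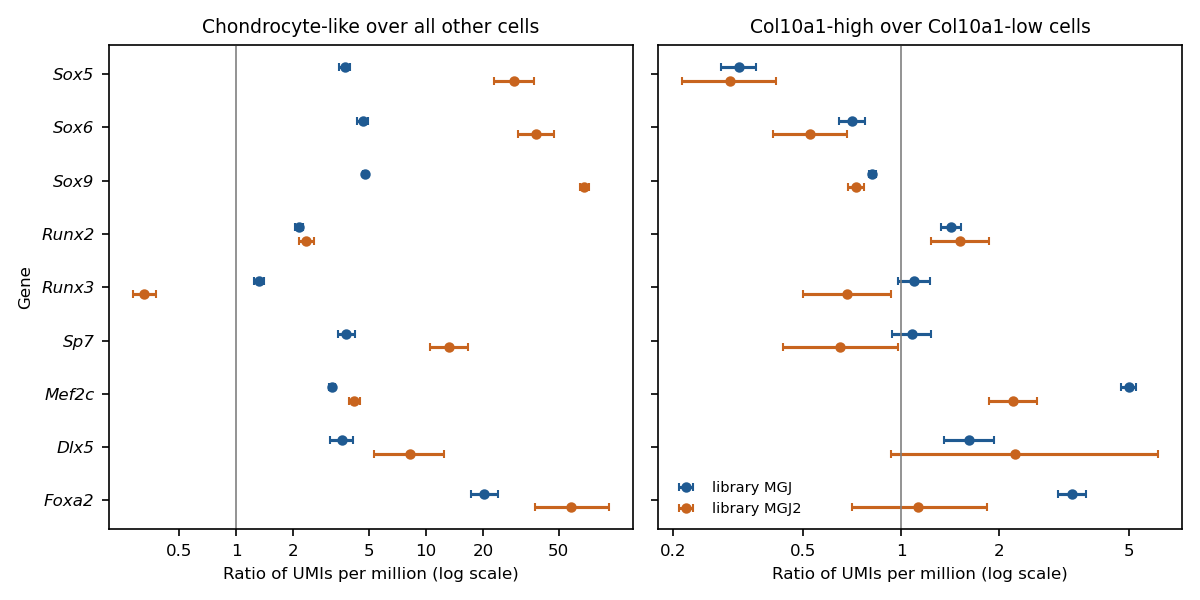
Ratio of CPM (log axis) for each member, with 95% counting intervals, in library MGJ and library MGJ2: chondrocyte-like over all other cells in the left panel and Col10a1-high over Col10a1-low chondrocyte-like cells in the right panel. Runx3 was the only member under 1 in the left panel (0.329 in MGJ2), and Mef2c reached 4.99 and 2.20 in the right panel.

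Chondrocyte-like cells were then divided by their own Col10a1 level into low (under 1000 CPM), moderate, and high (at least 10000 CPM) cells. Library MGJ gave 1462, 351 and 513 cells and MGJ2 36, 24 and 55 cells. Median depths were 21822.5, 23993 and 21286 UMIs in MGJ and 30844, 26455 and 28763 UMIs in MGJ2. These are ranges of a continuous level: 121 and 151 of the 2326 cells of MGJ, and 8 and 7 of the 115 cells of MGJ2, lay within 1.5-fold of the lower and the upper limit. Ptprc, a marker of blood cells, was at 5.57 CPM in low and 5.25 CPM in high cells of MGJ, and at 17.1 and 25.2 CPM in MGJ2. S100a8, a neutrophil gene, was at 475 and 714 CPM in MGJ and at 2319.9 and 1493 CPM in MGJ2. The mean UMIs per neutrophil-like cell were taken as free RNA and subtracted for 7 members, all but Runx3 and Mef2c, which blood cells express. The ratios of high to low cells stayed close to those given below. In MGJ, Sox5 was at 0.316 and Foxa2 at 3.35, and Runx2 was at 1.44 in MGJ and 1.53 in MGJ2. Blood classes also held Runx2, with neutrophil-like cells at 22.0 and 43.7 CPM. For Runx2 the subtraction cannot tell free RNA from transcripts of the neutrophil-like cells themselves.

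In library MGJ 3 of the 9 members (Mef2c, Foxa2 and Dlx5) were at least 1.5-fold higher in Col10a1-high than in Col10a1-low cells and 1 (Sox5) was lower by that much. The call of Dlx5 rested on the settings, and its ratio was under 1.5 in 8 of 12 alternatives, down to 1.33. Among all 11861 genes compared, 18.1% were higher and 20.5% lower by this rule. In MGJ2, of 8 members with enough UMIs, 2 (Mef2c and Runx2) were higher and 3 (Sox5, Sox6 and Sp7) were lower, beside 16.0% and 20.4% of 5379 genes. The median ratio of the members was 1.09 and 0.704, and that of all genes 0.986 and 0.978. With these few members the shares stand near those of all genes, and the values of each member follow.

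Mef2c had the largest ratio among the members along the Col10a1 stages of library MGJ as reported, though not under the 10% mitochondrial limit. Its levels in low, moderate and high cells were 70.7, 220.2 and 353 CPM in MGJ and 163, 432 and 357 CPM in MGJ2. The ratio of high to low was 4.99 (4.74 to 5.26) in MGJ and 2.20 (1.86 to 2.61) in MGJ2. When mitochondrial UMIs were limited to 10% and clusters remade, 44 and 1 Col10a1-high cells were left, and the ratios were 2.43 (2.07 to 2.84) in MGJ, below the 3.03 of Foxa2, and 0.638 in MGJ2. In MGJ every step was upward, whereas in MGJ2 the high cells were below the moderate ones (0.827, 0.718 to 0.953). Against osteoblast-like cells of MGJ, the Col10a1-high cells stood 2.52-fold higher. At 2000 UMIs the share of cells with a Mef2c UMI was 10.7%, 32.5% and 45.5% over the stages of MGJ (50.5%, 86.6% and 88.3% unthinned), against 0.825% of neutrophil-like cells (1.07% unthinned).

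Foxa2 was at 23.6, 74.7 and 79.1 CPM over the stages of MGJ, so its step lay between low and moderate cells (3.16-fold), and moderate and high cells were not told apart (1.06, 0.955 to 1.18). In MGJ2 it was at 26.9, 27.9 and 30.4 CPM, with a ratio of high to low of 1.13 (0.707 to 1.83). The ratio of MGJ was 3.35 (3.03 to 3.69), and the intervals of the libraries did not overlap. The thinned share was 3.37%, 13.04% and 15.05% in MGJ (18.5%, 47.9% and 50.3% unthinned).

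Sox5 went the other way, at 85.0, 43.8 and 27.0 CPM in MGJ and 108, 36.7 and 32.2 CPM in MGJ2. Its ratio of high to low was 0.317 (0.280 to 0.358) and 0.299 (0.213 to 0.414), nearly equal in the libraries, and with at most 10% mitochondrial UMIs it was 0.614 and 0.628, on 44 and 1 Col10a1-high cells. At 2000 UMIs, 15.9%, 7.83% and 4.75% of cells in the low, moderate and high stages of MGJ held a Sox5 UMI (70.9%, 55.3% and 37.0% unthinned), and 1 of 1333 neutrophil-like cells did (0.0750%; 0.311% unthinned). Sox6 and Sox9 shared this direction with smaller ratios. Sox6 was at 73.1, 73.5 and 51.7 CPM in MGJ (0.707, 0.644 to 0.776) and at 122, 91.1 and 64.4 CPM in MGJ2 (0.527, 0.406 to 0.683). Sox9 was at 888, 809 and 726 CPM in MGJ (0.817, 0.797 to 0.838) and at 2036, 1712 and 1477 CPM in MGJ2 (0.725, 0.685 to 0.768), so Col10a1-high cells still held most of the Sox9 level of the low cells.

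Runx2 was higher in Col10a1-high cells, at 74.0, 85.0 and 105 CPM in MGJ (1.42, 1.32 to 1.53) and 121, 129 and 183 CPM in MGJ2 (1.51, 1.23 to 1.86). Under the same 10% limit, with few high cells left, the ratios were 0.938 and 0.934. Runx3 showed no common direction. It was at 35.5, 54.9 and 38.9 CPM in MGJ (1.09, 0.976 to 1.22), highest in the moderate cells, and at 76.3, 61.7 and 52.1 CPM in MGJ2 (0.682, 0.501 to 0.930), where cells of 10000 to 40000 UMIs alone gave 1.28. Sp7 was at 24.0, 28.1 and 25.9 CPM in MGJ (1.08, 0.937 to 1.24) and at 45.8, 58.8 and 29.9 CPM in MGJ2 (0.652, 0.433 to 0.980), and the direction in MGJ2 turned when every cell was weighted equally (1.27). Dlx5 was at 11.1, 19.4 and 17.9 CPM in MGJ (1.62, 1.35 to 1.93). In MGJ2 the 31 Dlx5 UMIs of the high and low cells gave a ratio of 2.23 with an interval from 0.934 to 6.14, too few to read.

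**Figure D3:**
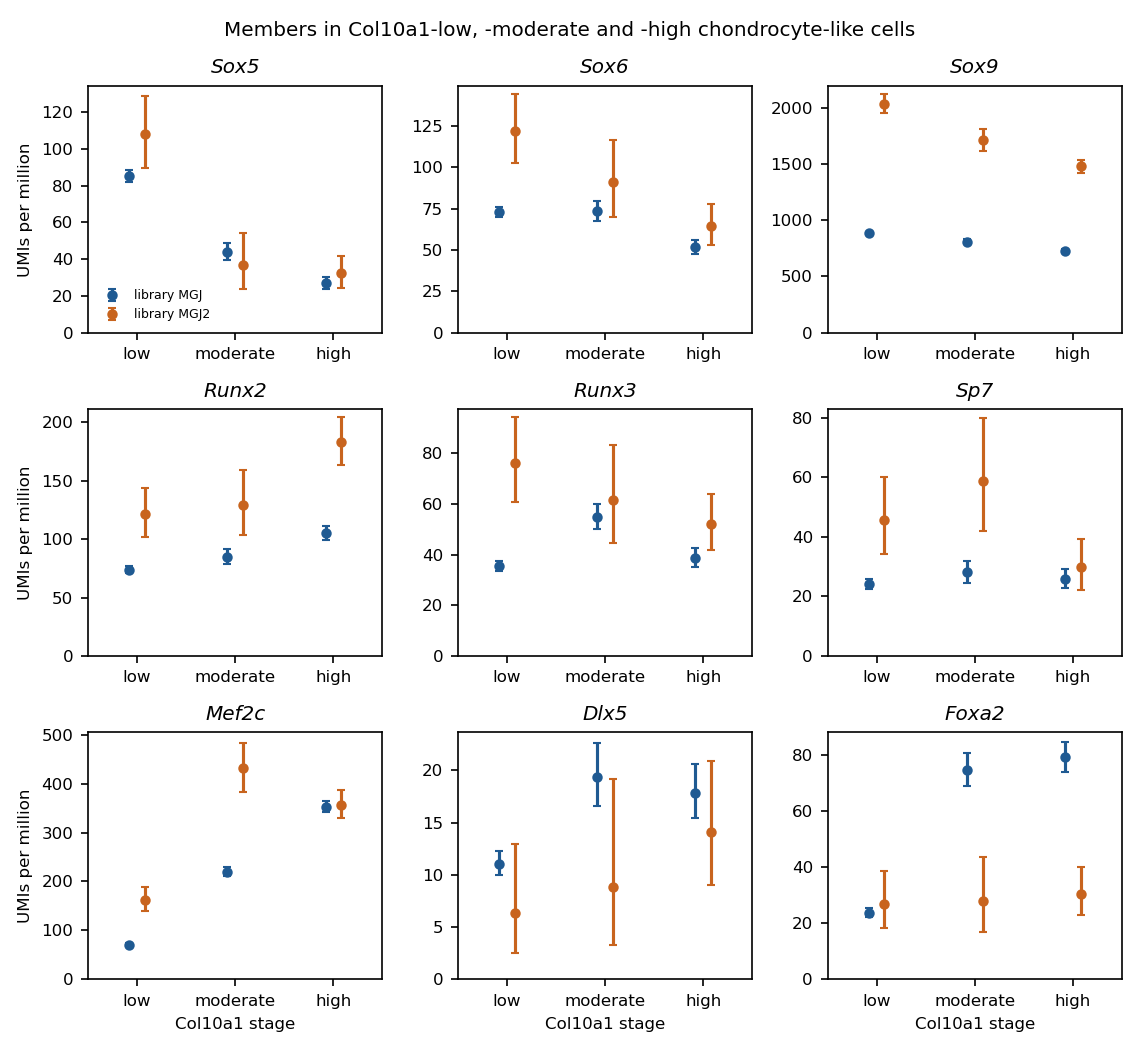
Level of each member (CPM, with 95% Poisson intervals) in Col10a1-low, moderate and high chondrocyte-like cells of library MGJ and library MGJ2, 1 panel per member with its own axis. Mef2c goes from 70.7 to 353 CPM and Sox5 goes down from 85.0 to 27.0 CPM in MGJ, while Foxa2 steps up in MGJ (23.6 to 79.1 CPM) and is near level in MGJ2 (26.9 to 30.4 CPM).

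The members were not exclusive of each other within barcodes kept as cells. Doublet calls took 3.81% of barcodes in MGJ and 3.05% in MGJ2, below the expected 10.8% and 6.24%. Uncalled doublets may therefore remain among the kept cells, and their part in the shared counts was not tested. A chondrocyte-like cell held UMIs of a median of 5 members in MGJ and 6 in MGJ2, against 0 and 1 in the other cells, at their much greater depth. All 9 members were counted in 36 and 2 chondrocyte-like cells, and none in 11 and 1. With each cell thinned to 5000 UMIs, 2219 cells of MGJ and 105 of MGJ2 remained. Of cells of MGJ with a Sox9 UMI, 31.7% (29.6 to 33.8%) also held Runx2, against 35.1% (28.6 to 42.0%) of cells without one, and the intervals overlapped. In MGJ2 the shares were 47.9% and 44.4%. Before thinning, 70.3% and 82.6% of cells held both.

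Mef2c was found more often beside Foxa2. In MGJ, 56.3% (50.4 to 62.0%) of the 295 cells with a Foxa2 UMI held Mef2c, against 35.2% (33.1 to 37.4%) of the 1924 cells without. Sox5 was found less often beside Mef2c, in 17.8% (15.3 to 20.5%) of cells with a Mef2c UMI and 30.5% (28.1 to 33.1%) of those without. Sp7 was present in 17.6% (13.5 to 22.5%) of cells with Foxa2 and 9.82% (8.53 to 11.2%) of those without. In the 105 cells of MGJ2 the intervals of these 3 pairs overlapped. All pairs pool the Col10a1 stages, along which the shares of cells with Mef2c, Foxa2 and Sox5 differed in MGJ. Whether these 3 pairs hold within a stage was not tested. Other pairs of MGJ had separate intervals too. Among them were Runx3 (22.0% of cells with Foxa2, 14.5% of those without) and Sox5 (18.3% and 26.8%). Before thinning, 25.5% of chondrocyte-like cells of MGJ held both Foxa2 and Mef2c, 37.3% both Mef2c and Sox5, and 15.2% both Sp7 and Foxa2.

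Sub-clusters of chondrocyte-like cells, made without the members, give the same levels a finer grain as a description. The Col10a1-rich sub-cluster led by Aldh1a3 and Loxl4 (545 cells of MGJ) held Mef2c at 365 CPM, against 30.3 to 155 CPM in the other 6, and had the lowest Sox5 (27.6 CPM) and the highest Runx2 (106 CPM). Foxa2 peaked elsewhere, at 95.9 CPM in 292 cells led by Nos2 and Rnd1, whose Col10a1 was lower, and was at 78.9 CPM in the Aldh1a3 cells and at 11.4 to 13.3 CPM in the cells led by Il11 and Penk, by Ube2c and Cdk1, and by Chil1 and Hp. Sox5 and Sox9 were highest in the 119 dividing cells led by Ube2c and Cdk1, at 111 and 945 CPM, whereas Sox6 was highest in 196 cells led by Nrn1 and Chrdl2, at 99.99 CPM. Sox9 lay between 701 and 945 CPM throughout. The Aldh1a3 cells of MGJ2 (81 cells) held Mef2c at 346 CPM, Foxa2 at 31.4 CPM and Sox5 at 33.5 CPM.

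**Figure D4:**
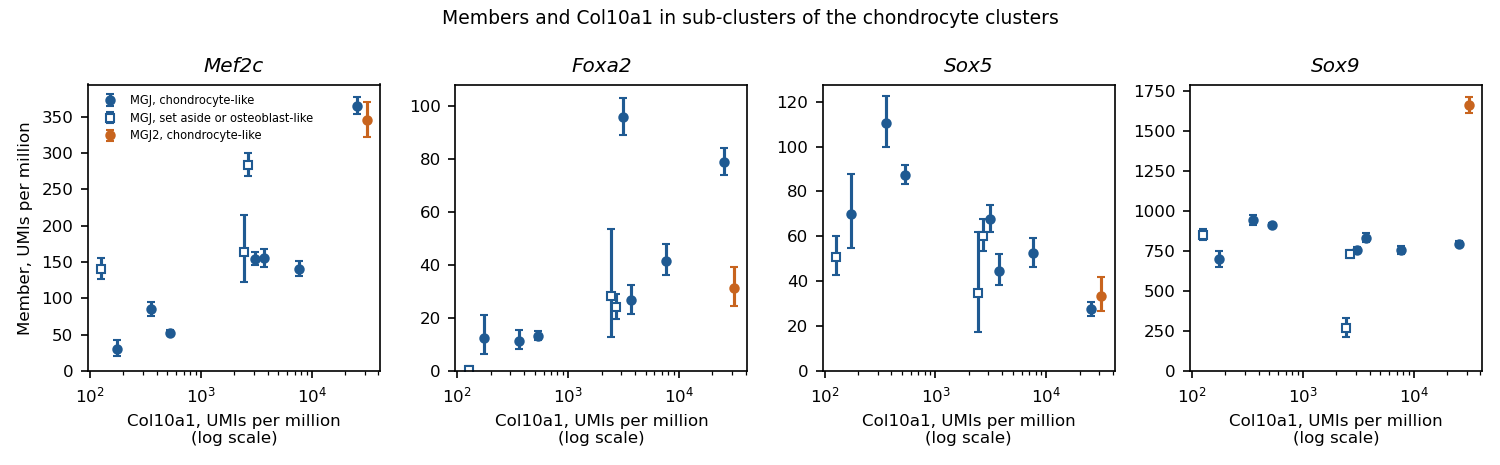
Levels of Mef2c, Foxa2, Sox5 and Sox9 (vertical axes, CPM, with 95% Poisson intervals) against the Col10a1 level (horizontal axes, CPM, log scale) in sub-clusters of the chondrocyte clusters, with filled points for those kept as chondrocyte-like in library MGJ or MGJ2 and open squares for those of MGJ set aside or named osteoblast-like. Mef2c is highest in the Col10a1-rich cells led by Aldh1a3 and Loxl4 (365 CPM in MGJ) and Foxa2 in those led by Nos2 and Rnd1 (95.9 CPM).

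Genes known to lie under or beside these factors were counted by lists. All 11 cartilage genes known as SOX9 and SOX5/SOX6 targets were at least 2-fold higher in chondrocyte-like cells in both libraries, with median ratios of 8.16 and 36.0, beside 12.4% and 19.4% of all genes. Between Col10a1-high and Col10a1-low cells, 1 was higher and 4 lower in MGJ (median 0.780), and none was higher and 8 lower in MGJ2 (median 0.353). Over all genes, by the fold alone, 18.1% were higher and 20.5% lower in MGJ, and 16.0% and 20.4% in MGJ2. The same shares stand beside the lists that follow. Ucma, a secreted cartilage protein, had ratios of 0.140 and 0.178, Epyc, a small proteoglycan, 0.269 and 0.018, and Chst11, a chondroitin sulfotransferase, 0.568 and 0.346. Cytl1, a secreted factor of chondrocytes, was higher in MGJ (1.74) and at 0.692 (0.415 to 1.16) in MGJ2.

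Of 11 genes known as RUNX2, SP7 and MEF2C targets, 9 had enough UMIs. In chondrocyte-like against other cells, 7 were higher in MGJ (median 7.08) and 9 in MGJ2 (median 33.9), beside 12.4% and 19.4% of all genes. In Col10a1-high against low cells, 8 of the 9 were higher in MGJ (median 3.59). In MGJ2, 5 of the 9 were higher and 1, Panx3, was lower (median 1.60). Ihh, the hedgehog signal of prehypertrophic cartilage, had ratios of 10.2 and 14.5, Mmp13, a collagenase, 4.85 and 2.49, and Ibsp, a mineral-binding protein, 7.78 and 1.64. Phex, an endopeptidase of mineralizing cells, was 12.1-fold higher in MGJ but at 0.978 (0.750 to 1.28) in MGJ2.

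Of 20 partners and regulators of the members, 6 of 19 with enough UMIs were higher and 2 lower in chondrocyte-like cells of MGJ. Over all genes the shares were 12.4% and 26.6%. In MGJ2, 7 of 13 were higher and 1 lower, beside 19.4% and 32.7% of all genes. Along the Col10a1 stages, 7 of 19 were higher and 7 lower in MGJ (median 1.02), beside 18.1% and 20.5% of all genes. In MGJ2, 2 of 10 were higher and 3 lower (median 0.734), beside 16.0% and 20.4%. Sox4, another SOX factor, was higher in Col10a1-high cells (3.22 and 4.66), as was Foxa3, a relative of Foxa2 (1.91 and 1.56). Hdac4, a repressor of RUNX2 and MEF2C, was lower (0.442 and 0.509). Mef2d, a relative of Mef2c, was 1.87-fold higher in MGJ and at 1.10 (0.884 to 1.37) in MGJ2.

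The genes whose levels ran most like those of each member were found over 42 points, the classes of at least 50 cells and the Col10a1 stages of both libraries, among 13077 genes, by Pearson's r of log2(CPM + 1). The points share libraries, and the stages lie within a class, so r is a description. Sox9 was nearest to Ccdc80 (0.976), Plod2 (0.972) and Smoc2 (0.972). Sox5 was nearest to Medag (0.962) and Sox6 to Ptgis (0.915). Sp7 was nearest to Lbhd2 (0.966), Grb14 (0.964) and Panx3 (0.962), Dlx5 to Smarca1 (0.962), and Foxa2 to Fxyd3 (0.972), Ocm (0.958) and Stc2 (0.957). The members shared with blood had no such near match, with Galnt3 (0.769) for Runx2, Auh (0.761) for Runx3 and Fam43a (0.851) for Mef2c. Between members, r was highest for Sox5 with Sox9 (0.923) and Dlx5 with Sp7 (0.923), and lowest for Runx3 with Sox9 (-0.188).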

How the data were processed

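Per the labels, digested callus was loaded on the 10x Genomics 3′ kit (version 3). The authors deposited, per library, a filtered matrix of UMI counts from Cell Ranger 4.0.0 (file header), not normalized. The submitters' processing notes name GRCm38 and Seurat. Values of comparisons by the authors were not used, and no cell annotation was used here. Barcodes with under 200 genes or over 20% mitochondrial UMIs were removed, as were those with a Scrublet score over 0.25 (513 in MGJ, 238 in MGJ2). UMIs were scaled to 10000 per cell, and 2000 variable genes, 30 principal components and 15 neighbours were used for Leiden clustering at resolution 1 (sub-clusters 0.5) of both libraries together (scanpy 1.11.5, leidenalg 0.10.2, python-igraph 0.11.9, scikit-learn 1.9.0). Clusters took names from 26 marker lists when the best list scored 1 or more, with 3 or more of its markers detected. Other tools were Python 3.11.15, numpy 2.4.6, scipy 1.17.1, pandas 2.3.3 and matplotlib 3.10.9.

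Levels were summed counts per 1000000 UMIs of a class with exact Poisson 95% intervals, ratios had exact conditional binomial intervals, and shares had Clopper-Pearson intervals after 1 random thinning. A ratio was read when the sets held at least 50 UMIs of the gene. A floor was 3 counts. The ratio intervals were tried on class totals simulated by the Poisson model that they assume. That check covers the calculation only and cannot show whether spread between cells makes the intervals too narrow. Alternatives changed the doublet, mitochondrial, clustering, stage, weighting and minimum count choices, subtracted free RNA, left the 100 most abundant genes out of the total, kept only cells of 10000 to 40000 UMIs, or kept a sub-cluster that had been set aside. The 9 members were all named. From each list, the 4 genes of largest ratio in either direction along the Col10a1 stages of MGJ were named, among those with at least 50 UMIs in each library, and for each member up to 3 genes of highest correlation. The members, lists and stages were chosen with earlier results of these data known.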

Additional observations from a re-analysis of the deposited data

Results flagged for a closer look

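Barcodes outside the kept cells also held the 9 members. The 1348 barcodes of library MGJ that failed the gene, mitochondrial or doublet filter carried the members at a summed 612 CPM (596 to 627), beside 746 CPM in kept cells and 1334 CPM in chondrocyte-like cells. The 441 removed barcodes of MGJ2 carried 337 CPM (318 to 357), beside 488 and 2449.8 CPM. These values were marked because the removed barcodes lie outside every comparison above and their level exceeded what 3 counts would give (0.308 and 0.901 CPM). Their cell types were not determined.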

How the results depend on the processing

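Over 13 alternatives, 424 values were recomputed. Of 72 counts of members, 66 stayed within 1.5 times the reported count. The other 6 all came from the Col10a1 stages of MGJ2, where the reported counts were 2 members higher and 3 lower. There, 1 was higher and 1 lower with at most 10% mitochondrial UMIs, 1 was higher and 1 lower with stages made by sub-cluster, and 1 was higher with stage limits of 500 and 5000 or of 2000 and 20000 CPM. The margin of 1.5 times lets a fall from 3 to 2 pass. In MGJ, the count of members higher in Col10a1-high cells was 3 as reported but 2 in most alternatives. It was 4 with every cell weighted equally. Of 352 values of single members, 198 moved by less than the counting interval, 146 moved beyond it in the same direction and 8 turned. With at most 10% mitochondrial UMIs, Mef2c in chondrocyte-like against other cells of MGJ was at 0.880, Runx2 in high against low cells at 0.938 in MGJ and 0.934 in MGJ2, and Mef2c in high against low cells of MGJ2 at 0.638. In MGJ2, Runx3 was at 1.28 in cells of 10000 to 40000 UMIs, and Sp7 was at 1.18 in those cells, 1.27 with every cell weighted equally and 1.16 with stages by sub-cluster. The 10% limit left 44 and 1 Col10a1-high cells, since the remade cluster that held most of them took no chondrocyte name. Keeping the Smim5 and Rtl3 sub-cluster among chondrocyte-like cells, an alternative chosen after seeing the data, left 8 members higher in both libraries but raised single ratios to other cells, in MGJ2 to 815 for Foxa2, 83.9 for Sox6, 29.0 for Dlx5 and 26.6 for Sp7, and in MGJ to 58.6 for Foxa2. With free RNA subtracted, all 7 members so treated kept their direction in both comparisons. For Runx2, which neutrophil-like cells also held, the subtracted counts may include their own transcripts. No paired analysis was possible because the labels give neither a group nor a replicate number. With 36 low cells in MGJ2, differences there rest on few cells.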
